A study of Mus musculus with 11 samples.

Results

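Cells that had been kept in culture, namely otospheres and embryonic stem cells (ESCs), were compared together with cochlear sensory epithelium (CSE) taken straight from the newborn mouse. All 11 arrays of the series were used, 8 from cultured cells (ES1, ES2 and OS1 to OS6) and 3 from tissue (CSE1 to CSE3). A change was kept when every cultured array lay on the same side of every CSE array and the contrast passed the test described below. Of 18942 genes tested, 2975 were kept, 964 of them higher (5.09%) and 2011 lower (10.6%) in both cultured groups than in CSE.

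The study asked what sets otospheres apart from the tissue they come from and from pluripotent cells. CSE and otospheres came from ICR mice aged 1 day, with 10 mice and 20 cochleae pooled in each preparation, so a sample stands for a pool and not for an animal. CSE was the epithelium left after the spiral ligament and stria vascularis had been pulled away, and it was lysed without culture. Otospheres are floating clusters grown from CSE that was dissociated with trypsin, in DMEM/F12 with N2, B27, bFGF, IGF1 and heparan sulfate, passaged 1 time, and freed of hollow spheres by filtering, which leaves solid ones. The ESCs were of 2 lines, G4-2 (ES1) and D3 (ES2), at passage 13, grown on gelatin without feeder cells, with LIF and fetal bovine serum. The cultured groups differ from each other in origin, medium, serum and attachment, and each ESC line is represented by 1 array. ESCs do not come from the cochlea and have no uncultured counterpart in the series. For them, culture and cell type therefore cannot be told apart. Rise and fall are used below only for a higher or lower signal than in CSE. The labels do not say whether the otosphere and CSE arrays with the same number came from the same dissection.

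Removing cells from a tissue takes away their neighbours, matrix and blood supply, and places them in rich medium with mitogens. Cultured cells are known to build actin stress fibres, to activate p53 and to adapt their supply of amino acids and sterols, while many genes of the differentiated state are lost. A dissected tissue also carries blood, vessels, nerve endings, glia and immune cells that a culture may not keep, and handling of tissue is known to induce immediate early genes.

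Signals are given as quantile-normalized log2 intensities for each array, in the order ES1 and ES2, the lowest to the highest of the 6 otosphere arrays with their median, and CSE1, CSE2 and CSE3. Means were taken of OS1 and OS2 and of OS4 and OS5, whose differences were 1.08 and 0.473 times as wide as replicate spots of a probe on 1 array would give, against 1.97 to 5.51 for the other pairs within a group, which leaves 4 otosphere, 2 ESC and 3 CSE samples. Between 55.1% and 71.6% of the spots were well above background on an array. The arrays lay on 2 slides, with CSE1 and CSE2 on the first and CSE3 as the only CSE array on the second. CSE3 stood apart from the other CSE arrays in genes induced within minutes of a stimulus, such as Fos, which was at 6.91, 5.57 and 13.84 in CSE1, CSE2 and CSE3. Over all genes, 24 were at least 2 log2 units higher in CSE3 than in both other CSE arrays, against 72 for CSE2 and 5 for CSE1. Calls that were lost without CSE3 are therefore named beside their values.

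The contrast was the mean of the otosphere and ESC group means minus the CSE mean, tested with limma over 6 cultured and 3 CSE samples, and adjusted p-values are by Benjamini-Hochberg over 47997 probes. Differences are on the log2 scale with the SE of that fit. Of 5921 genes with an adjusted p under 0.05, 2946 had at least 1 cultured array on the wrong side of a CSE array and were not kept. Without regard to the test, 1155 genes (6.1%) had every cultured array above every CSE array and 2219 (11.7%) had every one below. Both cultured groups differed from CSE by at least 1 for 406 of the genes that were higher and 1248 of those that were lower. When each cultured group also had to pass against CSE on its own, 453 and 1280 genes were left, fewer in both directions. The comparisons of otospheres and of ESCs with CSE share the same CSE arrays, and their values are given side by side.

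The rule left some genes out by a narrow margin. Rnaseh2a, a subunit of ribonuclease H2, was kept as higher with its lowest cultured array at 10.398 and its highest CSE array at 10.397. Aldh6a1, an enzyme of valine breakdown, was left out with its highest cultured array at 11.191 and its lowest CSE array at 11.190. On the first slide alone, 14.3% of genes had all 4 cultured arrays above both CSE arrays and 18.7% had them below. On the second, with 1 CSE array, the shares were 23.1% and 28%.

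**Figure D1:**
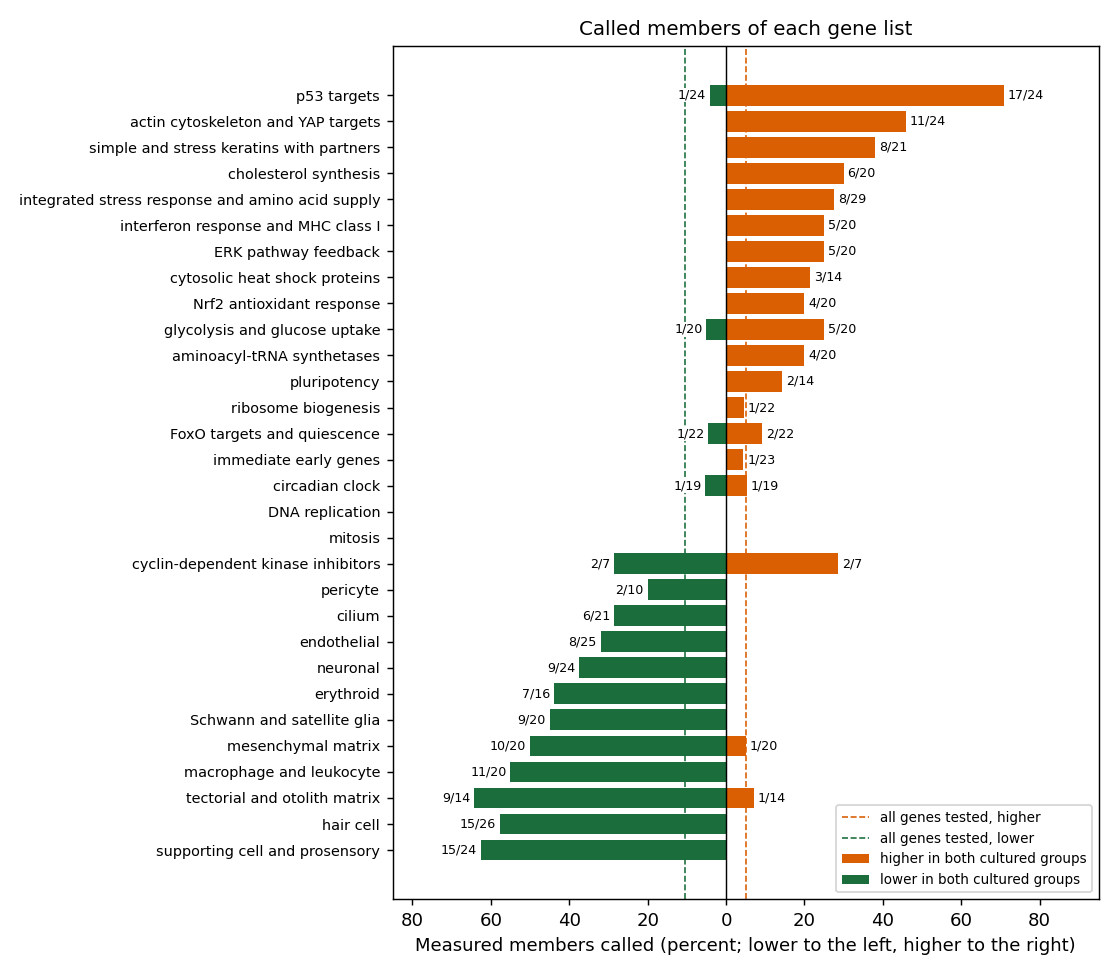
Share of the measured members of each of 30 gene lists that were higher (right) or lower (left) in both cultured groups than in CSE, in percent. Numbers beside the bars are called and measured members, and dashed lines give the shares over all genes tested (5.09% higher and 10.6% lower). The p53 list reached furthest to the right, with 17 of 24, and the supporting cell list had 15 of 24 to the left.

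Among the largest rises, Cnn1, which encodes the actin-binding protein calponin, was at 12.69 and 10.89 in ESCs, 8.79 to 13.30 (median 11.30) in otospheres and 5.41, 5.24 and 5.19 in CSE, a difference of 6.19 ± 1.06 (limma adjusted p = 0.00362), with 1 of the 3 CSE arrays above background. Plaur, the receptor of urokinase, was at 11.12 and 11.13 in ESCs, 9.67 to 12.11 (median 11.34) in otospheres and 6.13, 5.50 and 5.74 in CSE, and its 2 differences from CSE were nearly the same, 5.30 in otospheres and 5.33 in ESCs. No cultured array came within 3 log2 units of CSE for either gene. Krt17, a keratin of stressed and regenerating epithelia, was at 9.96 and 11.24 in ESCs, 9.36 to 14.63 (median 12.19) in otospheres and 5.62, 5.46 and 5.56 in CSE. The otosphere arrays varied far more than the CSE arrays, and the lowest of them was still well above CSE (5.79 ± 1.01, limma adjusted p = 0.00388).

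Hspb1, a small heat shock protein that binds actin, started from a high level in CSE and rose further, at 16.81 and 16.55 in ESCs, 15.67 to 17.96 (median 16.57) in otospheres and 12.02, 11.93 and 13.03 in CSE (4.37 ± 0.55, limma adjusted p = 8.14e-04). Bcl3, an atypical partner of the NF-kB proteins p50 and p52, was at 13.19 and 12.64 in ESCs, 9.24 to 13.48 (median 11.91) in otospheres and 7.28, 6.47 and 7.39 in CSE. OS6 was its lowest cultured array, and the difference was 5.24 ± 0.81, limma adjusted p = 0.00212. Slc7a3, a carrier of arginine and lysine, was at 13.70 and 14.17 in ESCs, 8.99 to 13.64 (median 12.66) in otospheres and 7.70, 7.79 and 7.58 in CSE (5.23 ± 0.92, limma adjusted p = 0.00403). Lgals3, the sugar-binding protein galectin-3, was at 11.93 and 12.39 in ESCs, 14.14 to 17.43 (median 16.17) in otospheres and 7.99, 7.66 and 8.29 in CSE, so that otospheres lay 3.78 above ESCs (limma adjusted p = 0.00633) and both lay above CSE. Acta1, Acta2, Tagln, Cdkn2a and 2200002D01Rik completed the 12 largest rises among genes measured in every group. For 2200002D01Rik, a gene named only by its clone, the difference was 4.96 ± 0.54, limma adjusted p = 4.01e-04.

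**Figure D2:**
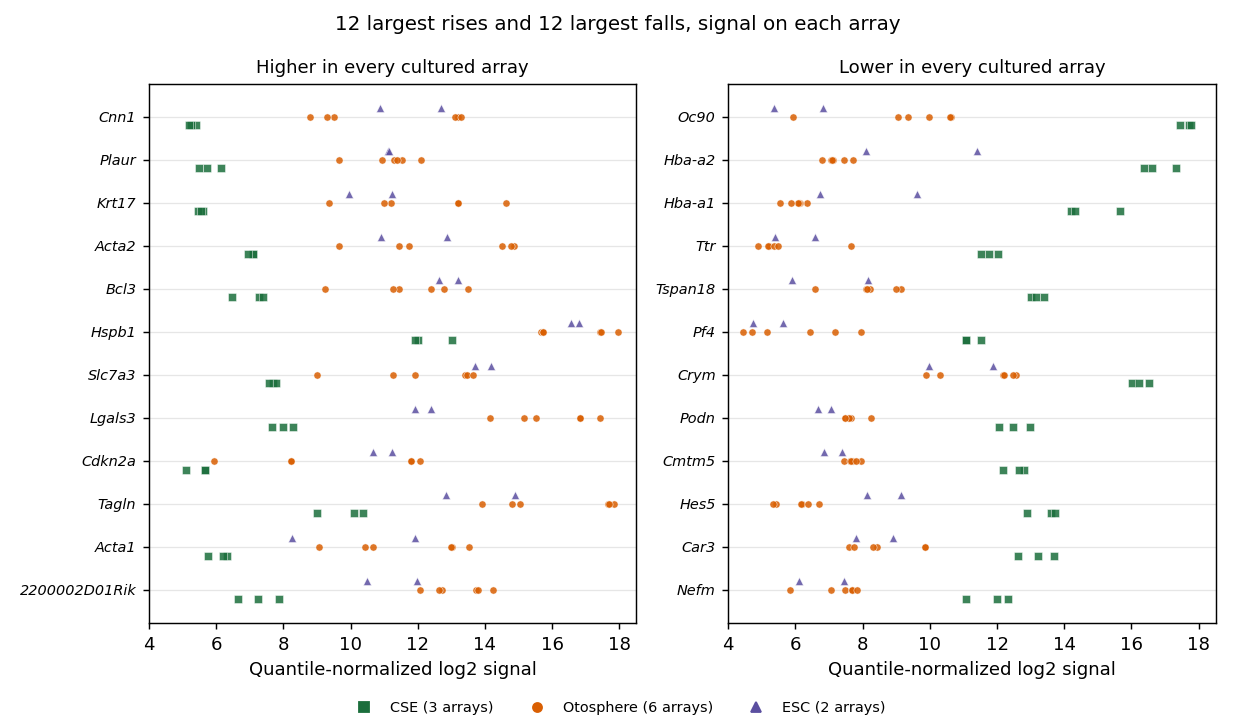
Quantile-normalized log2 signal on each of the 11 arrays for the 12 largest rises (left) and the 12 largest falls (right) among genes well above background on at least 1 array of every group, ranked by the smaller of the otosphere and ESC differences from CSE. Squares are CSE, circles otospheres and triangles ESCs. The rule by which the 24 genes were kept leaves no cultured array overlapping a CSE array. For Cdkn2a the lowest otosphere array, at 5.94, comes close to the highest CSE array, at 5.66.

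For 37 of the genes that were higher, no CSE array had the probe well above background, and the fold is a lower bound. Where no array of a group was above background, the fold is given as at least, against the dimmest signal that counted as above background. Pmaip1, the p53 target Noxa, which promotes cell death, was at 10.99 and 10.10 in ESCs, 9.43 to 13.42 (median 11.53) in otospheres and 5.19, 5.10 and 5.53 in CSE, at least 71.1-fold higher in otospheres and 38.7-fold in ESCs (limma adjusted p = 0.00138). Ankrd1, a target of the coactivator YAP, was at least 115-fold higher in otospheres and 9.88-fold in ESCs (limma adjusted p = 2.62e-05). The others of this kind were Rnf39 (at least 11.1-fold and 10.3-fold), the Ras regulator Rasal1 (3.58-fold and 10.8-fold), Myom2, a protein of the muscle M-band (3.85-fold and 4.78-fold), and the small GTPase Rasl10a (3.45-fold and 4.46-fold). The call for Rasl10a was lost without any 1 of the CSE arrays, with adjusted p-values of 0.0516 to 0.0556 in limma.

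p53 is a transcription factor that cells activate under DNA damage and other stress, and its targets arrest the cycle, repair DNA or start cell death. Of 24 measured targets, 17 were higher in both cultured groups (70.8%, against 5.09% of all genes), 1 was lower and 6 were not kept. The median difference over the list was 1.61, with 1.40 in otospheres and 1.42 in ESCs, against 0.04 over all genes. The count was 14 without any 1 of the 3 CSE arrays. Among the genes of cell death, Bax, which opens the mitochondrial membrane, was at 14.09 and 14.22 in ESCs, 13.06 to 14.22 (median 13.43) in otospheres and 11.69, 12.57 and 12.69 in CSE (1.55 ± 0.29, limma adjusted p = 0.00572). Bbc3, known as Puma, was at 13.06 and 12.26 in ESCs, 11.37 to 12.57 (median 12.04) in otospheres and 10.69, 10.03 and 10.86 in CSE (1.81 ± 0.32, limma adjusted p = 0.00437). Tnfrsf10b, a death receptor, rose by 2.31 ± 0.35 (limma adjusted p = 0.00199), and Perp, a protein of cell contacts needed for p53-dependent death, by 2.16 ± 0.52 (limma adjusted p = 0.0179). The call for Perp was lost without any 1 of the CSE arrays, at 0.0542 to 0.0656 in limma.

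Of the genes that restrain the cell cycle or growth, Gadd45a was at 11.26 and 10.57 in ESCs, 10.57 to 11.38 (median 11.15) in otospheres and 8.18, 7.74 and 8.42 in CSE, with all cultured arrays within 1 log2 unit of each other (2.91 ± 0.24, limma adjusted p = 1.06e-04). Sfn, the 14-3-3 protein that holds cells before mitosis, was at 11.87 and 10.19 in ESCs, 9.64 to 11.23 (median 10.43) in otospheres and 7.46, 6.70 and 7.12 in CSE (3.63 ± 0.45, limma adjusted p = 7.13e-04). In the qPCR of the study, Gadd45a was significantly higher in both cultured groups, whereas Sfn did not differ significantly between CSE and either of them. Gdf15, a secreted stress signal, was at 10.63 and 8.61 in ESCs, 10.35 to 15.26 (median 13.31) in otospheres and 5.98, 5.41 and 6.51 in CSE (5.33 ± 0.98, limma adjusted p = 0.00504). Ccng1 rose by 1.67 ± 0.22 (limma adjusted p = 0.00112), Plk3 by 2.23 ± 0.30 (limma adjusted p = 0.00113), Phlda3 by 2.64 ± 0.42 (limma adjusted p = 0.00234) and Aen, a nuclease of apoptosis, by 1.41 ± 0.30 (limma adjusted p = 0.00962). Mdm2, the ligase that degrades p53 and is itself a target, was at 13.68 and 13.55 in ESCs, 13.20 to 13.49 (median 13.33) in otospheres and 12.45, 12.69 and 12.59 in CSE, a modest difference with little spread (0.90 ± 0.13, limma adjusted p = 0.00152). Fas rose mainly in otospheres, by 4.73 against 0.90 in ESCs.

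Not every target followed. Cdkn1a, which encodes p21, was at 11.74 and 10.35 in ESCs, 12.80 to 14.56 (median 13.32) in otospheres and 11.43, 10.62 and 11.57 in CSE. Otospheres lay above CSE by 2.29 and ESCs differed by -0.16, so that the arrays overlapped (limma adjusted p = 0.161). Sesn1, a sensor of amino acids that is also a FoxO target, was the 1 member that fell, at 10.32 and 9.85 in ESCs, 9.78 to 10.72 (median 9.87) in otospheres and 11.86, 11.70 and 11.30 in CSE (-1.54 ± 0.25, limma adjusted p = 0.00296). Ei24, Plk2, Btg2, Polk and Ddb2 were not kept either.

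**Figure D3:**
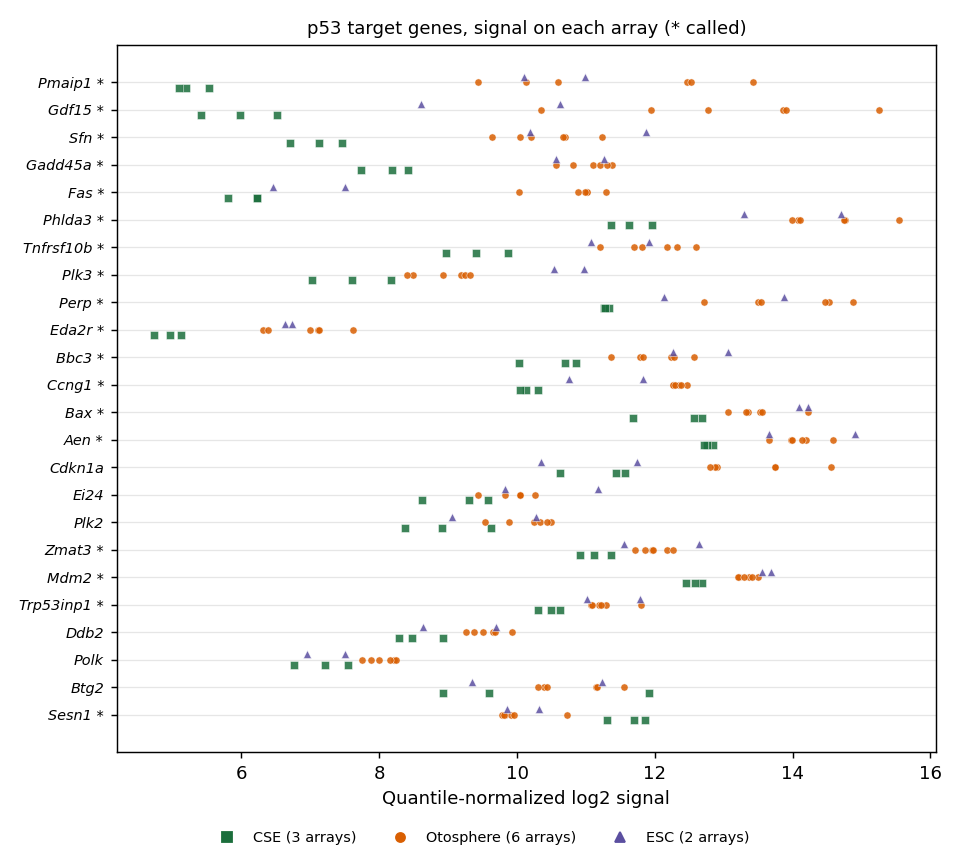
Quantile-normalized log2 signal on each array for the 24 measured p53 targets, ordered by their difference from CSE, with squares for CSE, circles for otospheres and triangles for ESCs, and an asterisk for the 18 that passed. In the 17 genes kept as higher, such as Gadd45a, the rule requires all cultured arrays to lie to the right of CSE. Sesn1 is the only one with an asterisk to the left.

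The next list held genes of the actin cytoskeleton and targets of YAP, a coactivator that responds to cell shape and tension. Of 24 measured, 11 were higher (45.8%) and none lower, and the median difference was 2.18, with 2.77 in otospheres and 1.10 in ESCs. Acta2, smooth muscle actin, was at 12.86 and 10.92 in ESCs, 9.65 to 14.86 (median 13.12) in otospheres and 7.09, 7.11 and 6.96 in CSE, with the 3 arrays OS4 to OS6 highest (5.21 ± 1.10, limma adjusted p = 0.00976). Tagln, or transgelin, was at 14.89 and 12.85 in ESCs, 13.91 to 17.83 (median 16.36) in otospheres and 10.38, 9.01 and 10.11 in CSE (5.14 ± 0.94, limma adjusted p = 0.00483), and its relative Tagln2 at 16.34 and 14.18 in ESCs, 15.27 to 16.34 (median 16.17) in otospheres and 12.72, 12.26 and 12.83 in CSE (3.01 ± 0.45, limma adjusted p = 0.00184). Actn1, which crosslinks actin filaments, rose by 2.42 ± 0.35 (limma adjusted p = 0.00151), Tpm2, a tropomyosin, by 2.53 ± 0.55 (limma adjusted p = 0.0108), and Cnn2 by 2.35 ± 0.46 (limma adjusted p = 0.00673). Acta1, the skeletal muscle actin, which was not on the list, was at 11.91 and 8.25 in ESCs, 9.07 to 13.51 (median 11.82) in otospheres and 5.75, 6.32 and 6.21 in CSE. ES2 was its lowest cultured array, and the difference was 4.71 ± 1.09, limma adjusted p = 0.015. Its adjusted p in limma was 0.0632 without CSE1 and 0.0531 without CSE3, and the call was lost. On its own the ESC difference of Acta1 from CSE, 3.99, did not pass (limma adjusted p = 0.0608). Ajuba, a scaffold of the Hippo pathway, rose by 1.99 ± 0.26 (limma adjusted p = 9.15e-04). The YAP target Ccn2 was not kept (limma adjusted p = 0.114), as CSE3, at 13.53, lay above both ESC arrays.

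Many muscle-type actin genes are read by serum response factor through the CArG box, an element of CC, 6 bases of A or T, and GG. The 250 bases before the transcription start (RefSeq, GRCm38.p6) are shown for Acta1 and Cnn2, the genes named above in which this element was found, with the element in capitals. The Acta1 window lies on the minus strand of chr8:123894776-123895025 and the Cnn2 window on the plus strand of chr10:79988350-79988599. The element starts 73 bases before the start in Acta1 and 56 bases before it in Cnn2, and reads as a CArG box on both strands.
Acta1: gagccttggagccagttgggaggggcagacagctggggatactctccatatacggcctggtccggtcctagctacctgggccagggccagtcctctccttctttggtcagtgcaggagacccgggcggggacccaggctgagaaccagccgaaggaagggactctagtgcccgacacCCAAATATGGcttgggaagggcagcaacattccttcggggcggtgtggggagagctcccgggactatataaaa
Cnn2: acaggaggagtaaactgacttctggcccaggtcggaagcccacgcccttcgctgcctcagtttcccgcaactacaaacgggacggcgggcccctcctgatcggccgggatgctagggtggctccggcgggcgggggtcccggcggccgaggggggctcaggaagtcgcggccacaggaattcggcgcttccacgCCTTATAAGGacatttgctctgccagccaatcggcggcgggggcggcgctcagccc
Of 32851 such windows, 1.47% held a CArG box on either strand. Of 19 list members with a window, 4 did, namely Cnn2, Myl9, Vcl and Lima1, and of these only Cnn2 was kept. The windows of Acta2, Cnn1 and Ankrd1 held no exact match, which says nothing of looser forms or of sites elsewhere. In the Acta2 window, ccctatatgg and ccttgtttgg come close, with a C or a G among the bases between CC and GG. Looser forms were not searched.

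**Figure D4:**
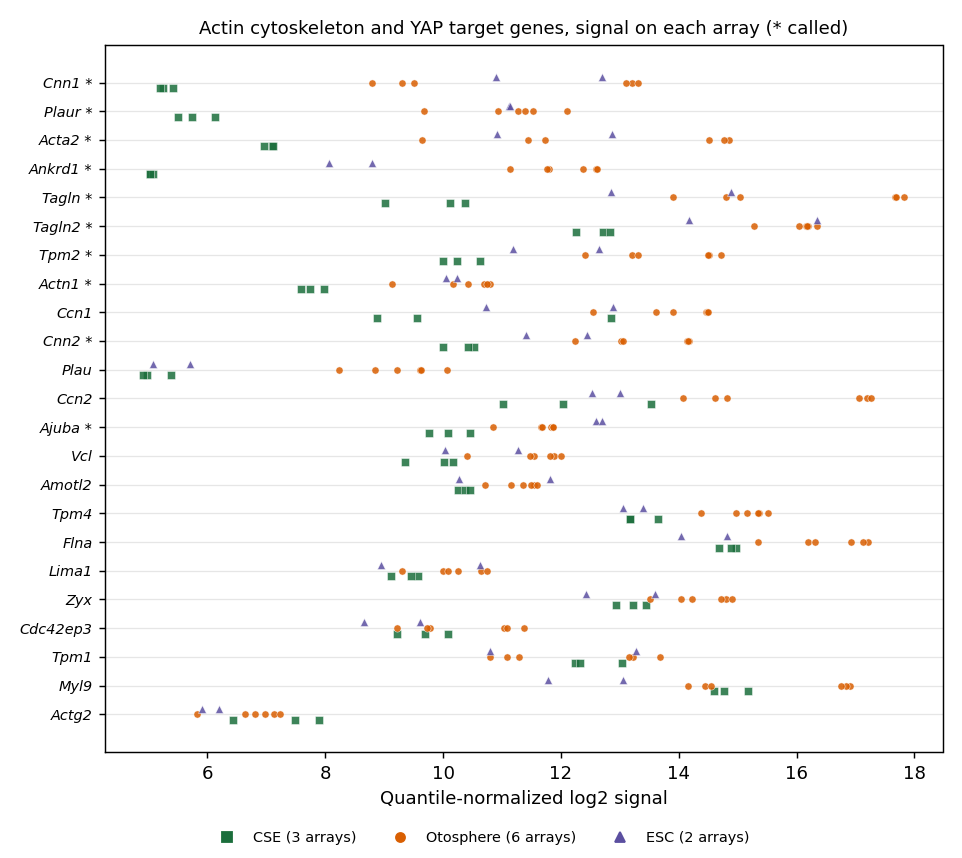
Quantile-normalized log2 signal on each array for 23 of the 24 measured genes of the actin cytoskeleton and YAP list, ordered by their difference from CSE, with squares for CSE, circles for otospheres and triangles for ESCs, and an asterisk for those that passed. In most genes the highest of the 6 otosphere arrays lies further right than the highest of the 2 ESC arrays, a comparison that favours the larger group.

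A list of epithelial keratins and other epithelial genes gave 8 higher of 21 (38.1%) and none lower. They included Krt17, Lgals3, Sfn, Perp, Krt7, Cldn4 and Jup. Krt17 and Krt7 were the only keratins among them, and Sfn and Perp are also counted among the p53 targets. Krt7, a keratin of simple epithelia, was at 10.03 and 8.78 in ESCs, 12.84 to 15.02 (median 14.11) in otospheres and 8.30, 8.15 and 8.46 in CSE, so that most of its rise was in otospheres (5.71) and ES2 lay just above CSE (1.10 for ESCs). Cldn4, a tight junction claudin, was at 11.17 and 9.92 in ESCs, 11.83 to 13.21 (median 12.96) in otospheres and 8.51, 8.49 and 9.56 in CSE (2.78 ± 0.41, limma adjusted p = 0.00177). Krt8 and Krt18, the common pair of simple epithelia, were not kept because ESC and CSE arrays overlapped. Krt8 was at 13.15 and 12.01 in ESCs, 15.13 to 17.42 (median 16.80) in otospheres and 10.91, 11.70 and 12.56 in CSE.

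The integrated stress response is a shared pathway in which lack of amino acids or faults of protein folding raise the transcription factor ATF4, which turns on amino acid uptake and synthesis. Of 29 measured genes, 8 were higher (27.6%) and none lower. The median difference was 1.00, with 1.45 in otospheres and 0.29 in ESCs. Trib3, a pseudokinase induced by ATF4, was at 12.23 and 11.62 in ESCs, 11.42 to 14.86 (median 13.90) in otospheres and 8.62, 8.08 and 8.80 in CSE (4.19 ± 0.71, limma adjusted p = 0.00346). Chac1, which degrades glutathione, was at 11.34 and 11.17 in ESCs, 10.16 to 14.72 (median 13.67) in otospheres and 8.41, 7.25 and 8.25 in CSE (4.15 ± 0.94, limma adjusted p = 0.0134). Asns, asparagine synthetase, was at 16.12 and 13.82 in ESCs, 13.04 to 15.87 (median 15.09) in otospheres and 12.57, 12.57 and 12.18 in CSE, with ES1 highest (2.40 ± 0.68, limma adjusted p = 0.0351). Stc2, a secreted glycoprotein, rose by 2.56 ± 0.62 (limma adjusted p = 0.0187), Mthfd2, a mitochondrial folate enzyme, by 2.60 ± 0.64 (limma adjusted p = 0.0196), Cebpg, a partner of ATF4, by 1.23 ± 0.28 (limma adjusted p = 0.013), and Sesn2 by 1.22 ± 0.37 (limma adjusted p = 0.0454). Slc7a3 is given above. Atf4 itself was at 15.30 and 14.71 in ESCs, 15.52 to 17.57 (median 16.79) in otospheres and 15.09, 15.16 and 15.82 in CSE, and Ddit3, a factor of the same pathway, at 9.30 and 8.69 in ESCs, 9.51 to 11.17 (median 10.19) in otospheres and 8.68, 8.30 and 9.25 in CSE. Neither was kept (limma adjusted p = 0.558 and 0.165). The count was 4, 3 and 4 without CSE1, CSE2 and CSE3, and 12 without OS3. In limma the call for Cebpg was lost without CSE3 (adjusted p = 0.0518) and that for Chac1 without CSE2 (adjusted p = 0.056). Mthfd2 was lost without any 1 of the CSE arrays (0.0569 to 0.0736), and Stc2 without CSE1, CSE2 or ES2 (0.0544 to 0.0737). Asns and Sesn2 were lost without any 1 of the CSE arrays, without ES1, and without OS1 and OS2 or OS4 and OS5, with adjusted p-values of 0.0546 to 0.118 and 0.0535 to 0.138.

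ATF4 is known to bind composite elements that contain TGATGNAA. The windows of Chac1 and Asns, each with 1 match in capitals, are printed from the same source, on the plus strand of chr2:119350992-119351241 and the minus strand of chr6:7693210-7693459. The match begins 193 bases before the start in Chac1, where it reads on the opposite strand, and 23 bases before it in Asns.
Chac1: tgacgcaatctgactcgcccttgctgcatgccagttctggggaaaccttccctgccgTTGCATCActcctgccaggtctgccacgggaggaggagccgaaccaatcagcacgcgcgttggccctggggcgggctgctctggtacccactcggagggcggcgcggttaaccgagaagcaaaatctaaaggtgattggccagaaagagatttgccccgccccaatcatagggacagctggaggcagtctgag
Asns: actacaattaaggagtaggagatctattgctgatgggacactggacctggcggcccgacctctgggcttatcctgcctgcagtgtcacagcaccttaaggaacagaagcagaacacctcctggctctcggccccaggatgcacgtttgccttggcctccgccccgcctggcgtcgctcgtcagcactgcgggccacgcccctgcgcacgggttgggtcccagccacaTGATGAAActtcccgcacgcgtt
This run of letters was in 3.45% of all windows of the same length, on either strand. It was in 7 of 25 list members with a window (Chac1, Asns, Slc7a11, Vldlr, Nupr1, Pck2 and Fgf21), of which Chac1 and Asns were kept.

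Transfer RNA synthetases, the enzymes that charge tRNAs with amino acids, had 4 higher of 20 (20%, against 5.09% of all genes) and none lower. The 4 were Mars1, Nars, Rars and Tars. Rars was at 10.29 and 10.29 in ESCs, 8.32 to 9.23 (median 8.64) in otospheres and 7.79, 7.91 and 6.90 in CSE (1.93 ± 0.26, limma adjusted p = 0.00101). The call for Nars was lost without CSE3 (limma adjusted p = 0.054). Without OS3, which had the lowest otosphere value for each of these 4 except Rars, 12 of the 20 passed. Wdr43 was the 1 gene that was higher among 22 of ribosome biogenesis (4.55%, against 5.09% of all genes). For this list the median was 0.09 in otospheres and 2.26 in ESCs, and 7 were higher without OS3, 3 without CSE1 and 2 without OS6 or CSE3.

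Among 20 genes of cholesterol synthesis and uptake, 6 were higher (30%) and none lower, and the median was 0.71 in otospheres and 0.95 in ESCs. Insig1, a sterol sensor of the endoplasmic reticulum, was at 9.79 and 9.41 in ESCs, 9.59 to 9.83 (median 9.77) in otospheres and 7.48, 8.32 and 7.96 in CSE, with little spread among cultured arrays (1.76 ± 0.20, limma adjusted p = 4.89e-04). The enzymes Fdps, Fdft1, Lss and Msmo1 rose by 1.26, 1.37, 2.37 and 1.21.

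For glycolysis and glucose uptake, 5 of 20 genes were higher (25%) and 1 was lower. Hk2, a hexokinase of growing cells, was at 12.17 and 12.18 in ESCs, 10.70 to 11.45 (median 11.12) in otospheres and 8.22, 7.76 and 8.65 in CSE, which is the widest gap of the list (3.41 ± 0.22, limma adjusted p = 3.06e-05). Slc2a1, the glucose carrier GLUT1, was at 14.81 and 14.60 in ESCs, 12.39 to 13.26 (median 12.87) in otospheres and 12.16, 11.29 and 12.08 in CSE (1.93 ± 0.26, limma adjusted p = 0.00101). Both ESC arrays of Slc2a1 lay above every otosphere array. Aldoa rose by 1.07 ± 0.12 (limma adjusted p = 5.31e-04) and Ldha by 1.11 ± 0.27 (limma adjusted p = 0.0198), and Pfkfb3, which makes the activator of phosphofructokinase, by 1.39 ± 0.28 (limma adjusted p = 0.00857). The call for Ldha was lost without ES2 or any 1 of the CSE arrays, at 0.0542 to 0.068 in limma. Pfkm, the muscle isoform of phosphofructokinase, fell, at 11.78 and 11.45 in ESCs, 10.97 to 11.10 (median 11.06) in otospheres and 12.77, 12.30 and 12.28 in CSE (-1.11 ± 0.16, limma adjusted p = 0.00163).

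Of 20 targets of NRF2, a factor that answers oxidative stress, 4 were higher (20%) and none lower. They were Gclm, the modifier subunit for glutathione synthesis (1.95 ± 0.35, limma adjusted p = 0.00445), Gsr, glutathione reductase (0.96 ± 0.21, limma adjusted p = 0.0108), Prdx1, a peroxiredoxin (1.09 ± 0.18, limma adjusted p = 0.0033), and the exporter Abcc4 (2.51 ± 0.34, limma adjusted p = 0.00121). Nqo1 and Hmox1, often measured as signs of this response, were not kept, and Nqo1 was at 7.17 and 9.62 in ESCs, 8.16 to 11.06 (median 9.70) in otospheres and 7.93, 7.27 and 8.16 in CSE. Without ES1, in which Nqo1 was lowest, 8 of the 20 passed. Among 14 cytosolic heat shock proteins, Hspb1, Hspb8 and Hspa4 were higher (21.4%, against 5.09% of all genes) and none was lower. Hspb8 rose by 2.50 ± 0.49 (limma adjusted p = 0.00668), and without ES1, OS3 and CSE1 the count was 6, 5 and 5. Hspa1a, the inducible HSP70, was at 7.83 and 7.39 in ESCs, 6.93 to 10.11 (median 8.54) in otospheres and 6.70, 6.03 and 6.79 in CSE and was not kept (limma adjusted p = 0.11).

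Otosphere medium holds bFGF and IGF1, and ESC medium LIF and serum, all of which can signal through the ERK kinase pathway. Of 20 genes that ERK signalling induces or that feed back on it, 5 were higher (25%) and none lower. Dusp4, a phosphatase that inactivates ERK, was at 10.89 and 10.57 in ESCs, 9.28 to 9.97 (median 9.53) in otospheres and 6.86, 7.20 and 7.54 in CSE (2.97 ± 0.21, limma adjusted p = 4.17e-05). Both ESC arrays of Dusp4 lay above every otosphere array. Epha2, a receptor kinase of epithelia, was at 13.17 and 12.84 in ESCs, 9.89 to 11.94 (median 11.31) in otospheres and 9.32, 8.51 and 9.51 in CSE (2.92 ± 0.45, limma adjusted p = 0.00206). Myc, the growth-promoting factor, was at 9.26 and 10.50 in ESCs, 9.03 to 10.58 (median 9.92) in otospheres and 8.72, 7.70 and 7.89 in CSE (1.72 ± 0.40, limma adjusted p = 0.0152), and its call was lost without CSE2 or CSE3 (limma adjusted p = 0.0641 and 0.0652). Fosl1, an AP-1 subunit held up by lasting ERK activity, rose by 2.09 ± 0.21 (limma adjusted p = 2.45e-04), and Spry2, an inhibitor of the pathway, by 1.64 ± 0.22 (limma adjusted p = 0.00105), with 0.52 in otospheres and 2.77 in ESCs.

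Of 20 interferon response and class I antigen genes, 5 were higher (25%) and none lower. Bst2, or tetherin, was at 13.86 and 12.52 in ESCs, 11.65 to 12.61 (median 11.68) in otospheres and 9.10, 8.65 and 9.89 in CSE (3.34 ± 0.39, limma adjusted p = 5.67e-04). Psmb8, a subunit of the immunoproteasome, was at 11.05 and 9.96 in ESCs, 8.14 to 11.04 (median 10.19) in otospheres and 6.99, 6.61 and 7.15 in CSE, with OS6 lowest among the cultured arrays (3.27 ± 0.60, limma adjusted p = 0.00482). Isg15 rose by 1.65 ± 0.26 (limma adjusted p = 0.00235), Oasl2 by 2.58 ± 0.54 (limma adjusted p = 0.00936) and the peptide transporter Tap1 by 1.35 ± 0.36 (limma adjusted p = 0.0287). The call for Tap1 was lost without any 1 of the CSE arrays, and without OS1 and OS2 or OS4 and OS5, at 0.051 to 0.103 in limma. Without OS6, 9 of the 20 passed. B2m, the light chain of class I molecules, was at 12.10 and 11.65 in ESCs, 15.28 to 16.21 (median 15.89) in otospheres and 13.46, 13.23 and 13.23 in CSE, with otospheres above ESCs (limma adjusted p = 2.69e-05), and was not kept.

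The genes of DNA replication and of mitosis gave no common change. None of 22 and none of 20 was kept in either direction, since in no gene did all cultured arrays lie on 1 side of CSE. Disregarding that rule, limma gave 15 of 22 and 10 of 20 an unadjusted p under 0.05, and 8 and 5 an adjusted p under 0.05. The median difference for replication was -0.18 in otospheres and 2.46 in ESCs, and that for mitosis was 0.03 and 2.99. Mcm2, a subunit of the replicative helicase, was at 13.86 and 13.60 in ESCs, 8.87 to 11.07 (median 9.81) in otospheres and 10.60, 10.03 and 10.00 in CSE. Top2a, the topoisomerase of dividing cells, was at 12.84 and 12.79 in ESCs, 5.99 to 10.92 (median 8.77) in otospheres and 9.61, 9.15 and 8.51 in CSE, with otosphere arrays on both sides of CSE. Cyclin-dependent kinase inhibitors split, with Cdkn2a and Cdkn2b higher and Cdkn1c and Cdkn2d lower among 7 (28.6% each way, against 5.09% and 10.6% of all genes).

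Cdkn2b, or p15, was at 9.92 and 8.18 in ESCs, 11.04 to 12.87 (median 12.21) in otospheres and 7.49, 6.51 and 6.98 in CSE (3.58 ± 0.52, limma adjusted p = 0.00164). Cdkn2a, which encodes p16 and ARF, was at 11.24 and 10.68 in ESCs, 5.94 to 12.06 (median 10.02) in otospheres and 5.66, 5.09 and 5.66 in CSE, and its otosphere arrays, with OS1 to OS3 highest, had the widest range among the 12 largest rises (4.76 ± 1.26, limma adjusted p = 0.0263), and 1 of the 3 CSE arrays was above background. On its own the otosphere difference from CSE, 4.04, did not pass (limma adjusted p = 0.0971), while the ESC difference, 5.49, did (limma adjusted p = 0.0299). By qPCR the study found Cdkn2a significantly higher in both cultured groups. The call for Cdkn2a was lost without any 1 of the CSE or ESC arrays, with adjusted p-values of 0.052 to 0.0848 in limma, and a further kept probe of the gene did not pass. Cdkn1c, or p57, an inhibitor kept high in postmitotic cells, was at 12.05 and 12.48 in ESCs, 11.70 to 14.54 (median 12.54) in otospheres and 15.76, 15.89 and 15.60 in CSE and fell in both groups (-3.19 ± 0.57, limma adjusted p = 0.00426). Cdkn2d, or p19, was at 11.53 and 10.57 in ESCs, 11.20 to 11.94 (median 11.47) in otospheres and 12.44, 12.37 and 12.09 in CSE (-1.01 ± 0.26, limma adjusted p = 0.023). Its call was lost under 6 of 19 alternatives, among them without CSE1 or CSE2 (limma adjusted p = 0.0945 and 0.0748).

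Among 22 FoxO targets and genes of quiescence, Klf9 and Sod2 were higher (9.09%, against 5.09% of all genes). Sesn1 was lower (4.55%, against 10.6% of all genes). Klf9 rose by 1.58 ± 0.31 (limma adjusted p = 0.00636). The call for Sod2 held only without OS3 or OS6 among the samples left out in turn, and its adjusted p was otherwise 0.0728 to 0.123 in limma. Without ES1, OS1 and OS2, OS4 and OS5, CSE1 or CSE2, 1 gene was higher, and 2 were lower without OS4 and OS5 or without CSE2. In the circadian clock, 1 of 19 was higher and 1 lower (5.26% each, against 5.09% and 10.6% of all genes). Nr1d1, the nuclear receptor REV-ERBα, was at 7.36 and 8.81 in ESCs, 7.60 to 8.80 (median 8.14) in otospheres and 5.78, 6.75 and 6.64 in CSE (1.72 ± 0.40, limma adjusted p = 0.0157), and the clock output factor Tef was at 12.68 and 11.38 in ESCs, 12.47 to 12.93 (median 12.79) in otospheres and 13.58, 14.32 and 13.73 in CSE (-1.49 ± 0.30, limma adjusted p = 0.00741). Without CSE1 none was higher, and 2 were without ES2 or CSE3. Without OS3, or without OS4 and OS5, 2 were lower.

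Immediate early genes, which respond within minutes to growth factors and to handling of tissue, depended on 1 CSE array. Of 23 measured, only Fosl1 was higher with all 3 CSE arrays (4.35%, against 5.09% of all genes). Without CSE3, 9 were higher, namely Fos, Fosl1, Junb, Ier2, Atf3, Klf6, Dusp1, Zfp36 and Arc. In 13 of the genes CSE3 lay at least 2 log2 units above both other CSE arrays, and in 11 it lay above every cultured array. Atf3 was at 9.71 and 8.95 in ESCs, 10.12 to 12.42 (median 11.68) in otospheres and 6.39, 5.74 and 11.31 in CSE, a difference of 2.59 with all CSE arrays and 4.33 without CSE3 (limma adjusted p = 0.165 and 0.00443). For Fos the difference moved from 0.53 to 3.07 (limma adjusted p = 0.869 and 0.0151). Egr1 was at 10.50 and 10.66 in ESCs, 11.57 to 13.93 (median 12.82) in otospheres and 10.66, 9.71 and 14.67 in CSE and was not kept with CSE3 or without it. Junb has no value on CSE3, where its spot was flagged, so it could only be kept without that array. CSE3 is also the only CSE array of its slide, and slide and sample cannot be told apart for it.

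**Figure D5:**
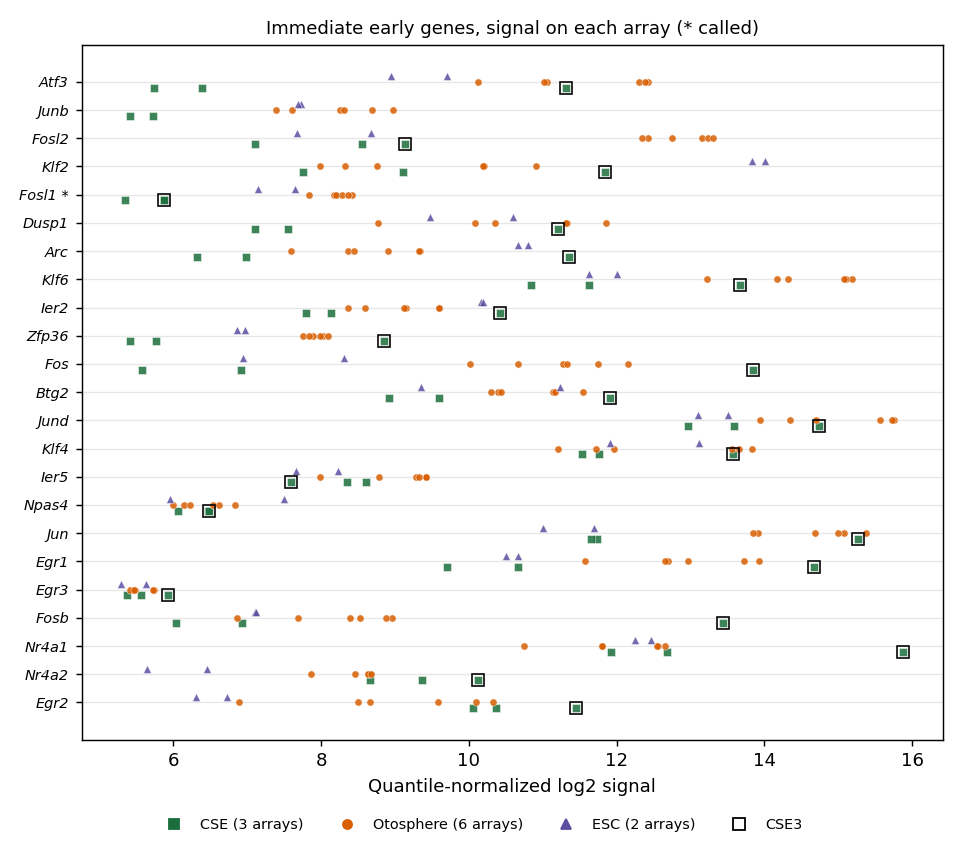
Quantile-normalized log2 signal on each array for 23 immediate early genes, ordered by their difference from CSE, with CSE3 framed, squares for CSE, circles for otospheres and triangles for ESCs. CSE3 lies far to the right of the other CSE squares for Fos, Fosb, Egr1, Atf3 and Arc, and Fosl1, marked with an asterisk, is the only gene kept with all arrays.

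Among the largest falls, Oc90, the main protein of otoconia, was at 5.35 and 6.82 in ESCs, 5.92 to 10.64 (median 9.65) in otospheres and 17.72, 17.45 and 17.77 in CSE and showed the widest gap of all genes measured in every group (-10.14 ± 0.92, limma adjusted p = 1.65e-04), with 1 of 2 ESC arrays above background. Ttr, the carrier of thyroid hormone and retinol, was at 5.39 and 6.58 in ESCs, 4.89 to 7.66 (median 5.29) in otospheres and 11.77, 11.52 and 12.03 in CSE (-6.01 ± 0.38, limma adjusted p = 2.52e-05), above background on 1 of 6 otosphere and 1 of 2 ESC arrays. Crym, which binds thyroid hormone in the cell, was at 11.87 and 9.98 in ESCs, 9.89 to 12.57 (median 12.21) in otospheres and 16.52, 16.02 and 16.23 in CSE, so that it stayed well above background in culture (-5.18 ± 0.66, limma adjusted p = 8.67e-04). Podn, a small leucine-rich proteoglycan, was at 7.06 and 6.67 in ESCs, 7.48 to 8.25 (median 7.57) in otospheres and 12.46, 12.05 and 12.99 in CSE (-5.25 ± 0.22, limma adjusted p = 4.12e-06), and Cmtm5, a membrane protein, at 7.38 and 6.85 in ESCs, 7.43 to 7.94 (median 7.69) in otospheres and 12.79, 12.19 and 12.64 in CSE (-5.14 ± 0.20, limma adjusted p = 2.72e-06). Car3, a carbonic anhydrase, fell by 4.76 ± 0.49 (limma adjusted p = 3.00e-04), and Tspan18, a tetraspanin, by 5.68 ± 0.60 (limma adjusted p = 3.46e-04).

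Many markers of blood and of cells other than the epithelium were lower in both cultured groups. In bulk samples, fewer cells of a type and less RNA per cell cannot be told apart. Of 16 measured erythroid genes, 7 were lower (43.8%, against 10.6% of all genes). Hba-a2, an α-globin chain, was at 11.41 and 8.10 in ESCs, 6.79 to 7.71 (median 7.11) in otospheres and 16.61, 17.31 and 16.38 in CSE (-8.32 ± 0.62, limma adjusted p = 6.12e-05), and the probes of β-globin genes were not well above background on any cultured array. Hbb-bt was at 4.88 and 4.76 in ESCs, 4.74 to 5.29 (median 4.86) in otospheres and 14.32, 15.28 and 14.06 in CSE, at least 734-fold lower in otospheres and 577-fold lower in ESCs (limma adjusted p = 1.34e-06), and Hbb-b2 and Hbb-bs were at least 219-fold and 61.7-fold lower in otospheres. The globin genes are close copies of each other, and probes may not tell them apart. ES1 held more α-globin signal than the other cultured arrays, at 11.41 for Hba-a2. Alas2, the erythroid enzyme of heme synthesis, was at 4.88 and 4.92 in ESCs, 4.82 to 5.19 (median 4.93) in otospheres and 8.61, 9.13 and 8.17 in CSE (limma adjusted p = 1.61e-05), at least 12.1-fold and 9.55-fold lower. Gata1, a factor of younger red cells, was not above background on any CSE array. Pf4, a platelet chemokine that macrophages can also make, was at 5.63 and 4.73 in ESCs, 4.44 to 7.94 (median 5.78) in otospheres and 11.08, 11.51 and 11.07 in CSE (-5.60 ± 0.70, limma adjusted p = 7.85e-04), above background on 3 of 6 otosphere and 1 of 2 ESC arrays.

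Of 20 macrophage and leukocyte genes, 11 were lower (55%) and none higher, with a median of -1.37 in otospheres and -1.43 in ESCs (-1.36 and -1.35 with members not above background at their bound). Cx3cr1, the fractalkine receptor of tissue macrophages, was at 5.52 and 5.22 in ESCs, 5.23 to 5.74 (median 5.40) in otospheres and 10.33, 9.93 and 10.07 in CSE, lower by 4.66 in otospheres and at least 24-fold in ESCs (limma adjusted p = 1.79e-06). C1qc, a chain of complement C1q, was at 4.95 and 4.88 in ESCs, 4.86 to 5.21 (median 5.00) in otospheres and 9.24, 8.81 and 9.23 in CSE, at least 15.8-fold lower in otospheres and 13.1-fold lower in ESCs (limma adjusted p = 2.69e-06). Tyrobp and Ctss were at least 19.2-fold and 10.8-fold lower in ESCs, and Mrc1 at least 17.8-fold lower in otospheres. Cd14, a co-receptor for bacterial lipopolysaccharide, was at 6.78 and 6.04 in ESCs, 10.31 to 14.39 (median 12.73) in otospheres and 7.31, 6.42 and 7.34 in CSE, so that every otosphere array lay above CSE while ESC and CSE arrays overlapped, and it was not kept. Csf1r, the receptor that defines these cells, was bright in every group, at 11.06 and 10.95 in ESCs, 10.66 to 11.99 (median 10.94) in otospheres and 12.13, 12.41 and 12.54 in CSE, and its difference was small (-1.28 ± 0.27, limma adjusted p = 0.0105). F13a1, a coagulation factor chain made by macrophages and platelets, was at least 17.2-fold lower in otospheres and 14-fold lower in ESCs (limma adjusted p = 3.48e-06).

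Endothelial genes had 8 lower of 25 (32%) and none higher. Cd93, a receptor of vessel walls, was at 5.16 and 5.05 in ESCs, 5.13 to 5.92 (median 5.62) in otospheres and 11.89, 10.46 and 11.67 in CSE, lower by 5.79 in otospheres and at least 62.1-fold in ESCs (limma adjusted p = 1.32e-05). Cldn5, the claudin of endothelial tight junctions, was at 8.84 and 8.03 in ESCs, 5.37 to 5.56 (median 5.47) in otospheres and 12.32, 10.80 and 11.93 in CSE (-4.74 ± 0.33, limma adjusted p = 4.04e-05). Both ESC arrays of Cldn5 lay above every otosphere array. Cdh5, which encodes VE-cadherin, was at 5.00 and 6.04 in ESCs, 5.71 to 6.16 (median 6.04) in otospheres and 9.47, 7.29 and 9.02 in CSE (-2.85 ± 0.46, limma adjusted p = 0.00256). CSE2 was lowest of the CSE arrays for each of these 3 genes. Pecam1 and Kdr, equally defining, were not kept, and Kdr was at 12.68 and 12.35 in ESCs, 12.52 to 13.21 (median 12.93) in otospheres and 13.27, 13.18 and 13.30 in CSE, a span of under 1 log2 unit over all arrays. Among 10 pericyte genes, Kcnj8 (limma adjusted p = 0.00197) and Higd1b (-1.78 ± 0.27, limma adjusted p = 0.0019) were lower (20%, against 10.6% of all genes). Rgs5, another marker of pericytes, was at 5.28 and 5.05 in ESCs, 12.76 to 14.58 (median 13.98) in otospheres and 10.16, 9.98 and 9.86 in CSE, above CSE on every otosphere array and not above background in ESCs, and was not kept.

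Neurites of the spiral ganglion reach into the sensory epithelium. Of 24 neuronal genes, 9 were lower (37.5%) and none higher, with medians of -3.60 in otospheres and -1.21 in ESCs. Nefm, a neurofilament chain, was at 6.10 and 7.45 in ESCs, 5.85 to 7.82 (median 7.56) in otospheres and 12.33, 12.01 and 11.08 in CSE (-4.85 ± 0.51, limma adjusted p = 3.41e-04). Syt1, the calcium sensor of synaptic vesicles, was at 7.02 and 5.36 in ESCs, 7.51 to 8.89 (median 8.71) in otospheres and 12.91, 12.79 and 12.86 in CSE (-5.56 ± 0.40, limma adjusted p = 4.92e-05). Dcx, a microtubule protein of young neurons, was at 4.69 and 4.76 in ESCs, 4.92 to 6.38 (median 5.63) in otospheres and 10.13, 9.90 and 8.12 in CSE, with CSE3 lowest among CSE, lower by 3.71 in otospheres and at least 16-fold in ESCs (limma adjusted p = 3.86e-04). Without CSE3, 15 of the 24 were lower. Tubb3 was not kept, with -4.31 in otospheres and -0.18 in ESCs, where ESC arrays overlapped CSE. Resp18, a secretory granule protein of endocrine and nerve cells, was at 4.93 and 5.24 in ESCs, 4.44 to 5.13 (median 4.85) in otospheres and 9.75, 9.15 and 8.56 in CSE (limma adjusted p = 2.37e-05), at least 17.6-fold lower in otospheres and 13.7-fold lower in ESCs.

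Schwann cell and satellite glia genes had 9 lower of 20 (45%). Fabp7, a lipid carrier of glial precursors, was at 5.34 and 5.84 in ESCs, 6.25 to 10.03 (median 7.43) in otospheres and 14.85, 14.41 and 14.28 in CSE, lower by 6.91 in otospheres and at least 486-fold in ESCs (limma adjusted p = 5.67e-05). S100b was at 5.16 and 4.89 in ESCs, 10.26 to 10.87 (median 10.46) in otospheres and 15.01, 14.18 and 14.70 in CSE, so that otospheres kept part of the signal and ESCs none above background, a fold of at least 609 against 17.3 in otospheres. Sox10, the factor of these glia and also of the otic epithelium, was not kept, since otosphere and CSE arrays overlapped. Mal, a protein of myelin, was at 8.35 and 6.81 in ESCs, 13.80 to 16.13 (median 15.09) in otospheres and 12.78, 12.51 and 12.43 in CSE, and Mbp, myelin basic protein, at 10.45 and 8.53 in ESCs, 12.93 to 13.55 (median 13.16) in otospheres and 11.21, 11.34 and 11.32 in CSE. For both, every otosphere array lay above CSE and both ESC arrays below, and neither was kept. Of 20 matrix genes of mesenchyme and cartilage, 10 were lower (50%, against 10.6% of all genes). The medians of this list were -1.59 in otospheres and -5.16 in ESCs. Only Thy1 was higher (5%, against 5.09% of all genes), by 2.43 ± 0.52 (limma adjusted p = 0.00996). Thy1 is a surface protein also found on neurons and other cells. Col2a1, the cartilage-type collagen, was at 10.12 and 9.11 in ESCs, 12.59 to 16.19 (median 14.79) in otospheres and 17.86, 17.62 and 18.03 in CSE (-5.75 ± 0.79, limma adjusted p = 0.00119). Lum, which encodes lumican, was at 4.88 and 4.79 in ESCs, 14.39 to 15.24 (median 15.04) in otospheres and 15.38, 15.42 and 15.34 in CSE. It was lower by 0.48 in otospheres and at least 1020-fold in ESCs (limma adjusted p = 1.83e-06 for the contrast of both groups with CSE). The call for Lum was lost after scaling to the 75th percentile and with the cultured samples as 1 group. The study lists Lum among the genes upregulated in otospheres and CSE. The mean log2 signal over the list was 12.56 to 12.83 on CSE arrays, 10.29 to 11.58 on otosphere arrays and 7.60 to 7.74 on ESC arrays. For the erythroid list it was 9.94 to 10.34, 6.85 to 7.09 and 7.63 to 7.72, for the macrophage list 8.24 to 8.35, 6.49 to 7.05 and 6.38 to 6.58, for the endothelial list 8.91 to 9.84, 6.55 to 7.43 and 8.24 to 8.25, for the neuronal list 10.40 to 11.28, 7.32 to 7.80 and 9.09 to 9.09, and for the glial list 10.47 to 10.81, 8.75 to 9.59 and 7.56 to 7.88. The part of such cells in the other results was not tested.

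Hair cells turn sound into signals, and many of the genes that build them were lower in both cultured groups than in CSE. Of 26 measured, 15 were lower (57.7%) and none higher, with medians of -1.54 in otospheres and -2.66 in ESCs (-1.50 and -2.60 with members not above background at their bound). Atoh1, the factor that starts hair cell fate, was at 5.09 and 5.09 in ESCs, 4.88 to 7.36 (median 6.12) in otospheres and 9.62, 8.94 and 9.30 in CSE (limma adjusted p = 0.00118). OS6 and OS4 were the highest cultured arrays. Gfi1, which acts after Atoh1, was at 5.26 and 4.99 in ESCs, 6.44 to 9.69 (median 8.32) in otospheres and 10.35, 10.26 and 10.70 in CSE (limma adjusted p = 0.00366), with OS4 to OS6 closest to CSE. Pvalb, a calcium-buffering protein, was at 9.27 and 8.80 in ESCs, 9.33 to 10.88 (median 9.86) in otospheres and 13.93, 13.73 and 13.56 in CSE (-4.25 ± 0.33, limma adjusted p = 7.88e-05). Of the hair bundle, Ush1c, which encodes harmonin, fell by 4.30 ± 0.46 (limma adjusted p = 3.50e-04), Myo7a by 2.56 ± 0.39 (limma adjusted p = 0.00203) and Cib2, a partner of the transduction channel, by 3.26 ± 0.54 (limma adjusted p = 0.00306). Otof, needed for release at the hair cell synapse, was at 10.08 and 9.94 in ESCs, 9.90 to 11.33 (median 10.79) in otospheres and 11.73, 11.81 and 12.30 in CSE (-1.60 ± 0.33, limma adjusted p = 0.00826). Myo6 was not kept, with 5.63 and 5.29 in ESCs, 6.44 to 8.33 (median 7.67) in otospheres and 8.26, 7.82 and 7.79 in CSE, where OS4 to OS6 overlapped CSE.

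Supporting cells surround hair cells and are held in that fate by Notch signalling, whose targets are the Hes and Hey repressors. Of 24 genes of supporting and prosensory cells, 15 were lower (62.5%) and none higher. Hes5 was at 9.13 and 8.14 in ESCs, 5.34 to 6.70 (median 6.19) in otospheres and 13.59, 12.89 and 13.72 in CSE (-6.07 ± 0.36, limma adjusted p = 2.01e-05). Otospheres minus ESCs was -2.60 for Hes5 (limma adjusted p = 0.00197). Hey1 was at 8.89 and 8.64 in ESCs, 9.03 to 9.96 (median 9.75) in otospheres and 12.91, 12.54 and 12.69 in CSE (-3.53 ± 0.22, limma adjusted p = 2.36e-05) and Heyl at 5.55 and 5.12 in ESCs, 5.56 to 6.82 (median 6.38) in otospheres and 10.15, 9.59 and 10.22 in CSE (-4.19 ± 0.29, limma adjusted p = 3.74e-05). Hes1 was at 8.78 and 7.51 in ESCs, 7.83 to 8.38 (median 8.22) in otospheres and 7.90, 6.93 and 7.54 in CSE and was not kept (limma adjusted p = 0.163). Among ligands and modifiers, Jag1 was at 8.88 and 9.30 in ESCs, 9.88 to 10.58 (median 10.00) in otospheres and 12.75, 12.68 and 12.96 in CSE (-3.20 ± 0.20, limma adjusted p = 2.35e-05), and Lfng, the glycosyltransferase that tunes Notch receptors, fell by 1.96 ± 0.31 (limma adjusted p = 0.00239).

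The DNA-binding partner of Notch, RBPJ, is known to bind TGGGAA. The window before the Hes5 start holds it 2 times, 226 and 82 bases before the start, the first on the opposite strand, and is printed for the plus strand of chr4:154960673-154960922 with the matches in capitals.
Hes5: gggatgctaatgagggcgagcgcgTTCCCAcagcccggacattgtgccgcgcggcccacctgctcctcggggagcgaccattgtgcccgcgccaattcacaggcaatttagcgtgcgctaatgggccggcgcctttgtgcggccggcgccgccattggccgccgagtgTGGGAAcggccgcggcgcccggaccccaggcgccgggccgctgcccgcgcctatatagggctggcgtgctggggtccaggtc
These 6 bases were in 21.6% of all windows of this length, so a match is common. Of 10 kept members with a window, 4 held it (Prox1, Hes5, Hey2 and Lfng).

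Fgfr3, the receptor of pillar cells, was at 9.86 and 8.73 in ESCs, 8.79 to 9.80 (median 9.20) in otospheres and 13.08, 13.04 and 13.34 in CSE, with the same fall in both groups, -3.91 and -3.86 (-3.89 ± 0.28, limma adjusted p = 4.70e-05 for the contrast). Lgr5, a receptor of Wnt-responsive progenitors, was at 4.69 and 5.34 in ESCs, 7.77 to 9.59 (median 8.46) in otospheres and 11.29, 11.20 and 11.20 in CSE, with otospheres between CSE and ESCs. Gjb2 and Gjb6 encode connexins 26 and 30, which form the gap junctions of supporting cells. Gjb2 was at 6.56 and 6.40 in ESCs, 12.90 to 13.43 (median 13.18) in otospheres and 15.09, 14.75 and 15.03 in CSE and Gjb6 at 4.83 and 4.60 in ESCs, 8.08 to 10.44 (median 9.28) in otospheres and 13.29, 13.32 and 13.43 in CSE. Otospheres kept Gjb2 at 1.80 below CSE, while ESCs lay far lower (limma adjusted p = 1.79e-06 for the contrast of both groups with CSE). Gata3, a factor of the otic lineage, was likewise lower, with -2.10 in otospheres against -6.25 in ESCs. Sox2 was not kept, as it was lower than CSE in otospheres and higher in ESCs.

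Of 14 genes of the tectorial and otolith matrix, 9 were lower (64.3%) and 1 was higher. Tectb, which encodes β-tectorin, was at 4.83 and 4.87 in ESCs, 9.08 to 13.05 (median 10.09) in otospheres and 16.43, 16.10 and 16.68 in CSE, and Tecta at 4.98 and 5.09 in ESCs, 10.80 to 12.74 (median 12.52) in otospheres and 14.59, 15.10 and 14.54 in CSE. Both fell in otospheres, by 5.88 and 2.67, and were not above background in ESCs, at least 2080-fold and 657-fold lower there. Coch, or cochlin, was at 6.63 and 8.91 in ESCs, 5.38 to 7.12 (median 6.38) in otospheres and 11.51, 10.18 and 11.22 in CSE (-4.00 ± 0.54, limma adjusted p = 0.00116). Otop1, a proton channel of the vestibular epithelium, was the 1 that was higher, at 5.99 and 6.40 in ESCs, 6.90 to 8.14 (median 7.30) in otospheres and 5.46, 5.25 and 5.66 in CSE, a low signal in every group (1.31 ± 0.25, limma adjusted p = 0.00583). Epyc was kept as lower with otospheres 0.83 below CSE and ESCs at least 1250-fold below it, at 4.78 and 4.68 in ESCs, 14.48 to 15.07 (median 14.99) in otospheres and 15.68, 15.57 and 15.76 in CSE.

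Of 21 cilium genes, 6 were lower (28.6%) and none higher, with nearly equal medians of -0.72 in otospheres and -0.69 in ESCs. Bbs1, a subunit of the BBSome that carries cargo in cilia, was at 8.45 and 7.83 in ESCs, 8.88 to 9.48 (median 9.21) in otospheres and 10.88, 10.55 and 10.60 in CSE, a difference of -1.46 in otospheres and -2.54 in ESCs (limma adjusted p = 3.07e-04). Tekt1, a protein of motile cilia and centrioles, was at 8.75 and 9.96 in ESCs, 6.49 to 7.88 (median 7.47) in otospheres and 10.56, 10.48 and 11.41 in CSE (-2.50 ± 0.41, limma adjusted p = 0.00298), and Ift88, which is needed to build cilia, at 9.96 and 10.13 in ESCs, 10.15 to 10.51 (median 10.38) in otospheres and 11.05, 11.36 and 11.04 in CSE (-0.95 ± 0.15, limma adjusted p = 0.00245).

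Pluripotency genes served to check the ESC label. Their median difference from CSE was 0.07 in otospheres and 7.47 in ESCs (0.00 and 7.42 with members not above background at their bound). Pou5f1 was at 14.02 and 14.27 in ESCs, 5.36 to 5.56 (median 5.41) in otospheres and 5.56, 5.25 and 5.39 in CSE, high in ESCs only. The probe that stood for Nanog went against the label, with both ESC arrays below every other array. It was at 8.50 and 8.26 in ESCs, 8.71 to 10.75 (median 9.04) in otospheres and 9.41, 10.34 and 10.34 in CSE. This was the brightest kept probe of the gene, and the study, which added ESC arrays of other series, lists Nanog as upregulated only in ESCs. The value here is therefore not a measure of Nanog in ESCs to rely on. Dppa4 and Utf1 were the 2 of 14 kept as higher (14.3%, against 5.09% of all genes). Their otosphere differences from CSE were 0.29 and 0.88 against 6.36 and 7.64 in ESCs, with the otosphere arrays of Dppa4, at 5.45 to 5.69, at the low end of the scale. Without ES1 or ES2, and with the probe for each gene chosen again, 1 was kept, while the probe of Dppa4 used here still passed. For 162 of the genes that were lower, no cultured array was above background. Serpina3a was at 5.18 and 5.34 in ESCs, 4.82 to 5.26 (median 5.08) in otospheres and 10.77, 10.53 and 11.86 in CSE, at least 59.9-fold and 50.9-fold lower (limma adjusted p = 7.58e-06). By annotation, 4 of 704 long non-coding RNA genes were higher and 64 were lower, against 949 and 1941 of 18057 protein-coding genes.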

How the data were processed

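RNA of 11 samples was labelled with Cy3 and hybridised to single-colour Agilent mouse arrays, designed on mm9. The authors deposited the scanner output, in which intensity is given per spot on a linear scale, and a table of log2 values that they had normalized. Median spot and local background intensities were used here. With limma 3.58.1 in R 4.3.3, background was corrected by normexp with an offset of 16, and log2 values were quantile normalized over all arrays. Control and outlier-flagged spots were dropped, spots of a probe were averaged, and 47997 of 55681 probes, which on 2 or more arrays exceeded the 95th percentile of negative controls by 10%, were kept. Genes were named through RefSeq accessions, and the brightest kept probe stood for a gene. Of 873 called genes with several kept probes, 135 had another kept probe of opposite sign. For 13 of the 873, another kept probe was called the other way. Each result used 4 otosphere, 2 ESC and 3 CSE samples in a model of group means, with p-values adjusted by Benjamini-Hochberg. The named genes were the 12 largest rises and falls measured in every group, 8 each with a side not above background, and members of 30 lists, of which some are not reported here. The comparison, the members and the lists were chosen with earlier results of these data known. The test was checked on simulated data in which each probe had the same spread in every group. That check left out the rule that all cultured arrays lie on the same side of CSE. Alternatives changed the offset, normalization, filter, model, probe choice and samples. Nothing in the labels says whether all preparations were independent, so p-values measure the spread between these samples, and the small number of arrays limits precision.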

Additional observations from a re-analysis of the deposited data

Results flagged for a closer look

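Among 37 of the genes named for the size of their change, 6 also differed between the cultured groups at an adjusted p under 0.05 in limma, although both groups lay on the same side of CSE. Otospheres were above ESCs for Lgals3, by 3.78 on the log2 scale (limma adjusted p = 0.00633), and for Ankrd1, by 3.54 (limma adjusted p = 2.52e-04). Otospheres minus ESCs was -1.59 for Rasal1 (limma adjusted p = 0.00509), which was higher than CSE in each group. Among the falls it was -2.60 for Hes5 (limma adjusted p = 0.00197), -2.61 for Hba-a2 (limma adjusted p = 0.0288) and -2.24 for Hba-a1 (limma adjusted p = 0.0461). ES1 held the higher of the 2 ESC values for Hba-a2, at 11.41 against 8.10 in ES2. No otosphere sample was outlying within its group for any of the 37 genes.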

How the results depend on the processing

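Between 858 and 1320 genes were higher and between 1670 and 2178 lower when 1 sample was left out, the highest count of rises without OS3 and the lowest without CSE2. With all cultured samples as 1 group, 372 genes were higher and 987 lower. When each cultured group had to pass on its own there were 453 and 1280, and with a difference of at least 1 in both, 406 and 1248. Other normalizations, offsets, filters, probe choices, variance models and a slide block gave 829 to 1087 and 1651 to 2112. Between same-numbered samples, deviations from the group means had correlations of -0.39 to 0.36. Deviations within a group sum to 0 and the groups are small, so this cannot decide whether samples share a dissection. CSE1 correlated best with OS2 (0.47), CSE2 with OS3 (0.50) and CSE3 with OS5 (0.31), pairs that the labels do not give. The replicate block with every array separate gave 838 and 1867. Of 209 named genes, 129 kept their call under all 19 alternatives, 80 lost it under at least 1, 69 of these with the cultured samples as 1 group, and 0 reversed. In the authors' table, probes spotted 10 times had differences with a median of 0.107 times those of the scanner files, and Acta2, at 0.52 against 5.21, was among the calls lost there. With the cultured samples as 1 group, the lists whose counts moved by over 1.5 times had 3 rises for the stress response, 0 for tRNA synthetases, ribosome biogenesis, pluripotency and tectorial genes, 3 for glycolysis, 5 for keratins, 3 for ERK feedback and 1 for FoxO targets and for kinase inhibitors, and falls of 7 hair cell, 4 tectorial, 5 glial and 1 mesenchymal gene, 1 kinase inhibitor and 0 clock genes. Scaling to the 75th percentile gave 8 tRNA synthetases and 7 NRF2 targets. The causes were not tested. Probes near background have only bounds.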
